A study of Mus musculus with 3 samples.

Results

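Interferon regulatory factors are transcription factors that bind DNA through a shared helix-turn-helix domain, and 7 of their genes, Irf1, Irf2, Irf4, Irf5, Irf7, Irf8 and Irf9, were followed across the states of mouse tumour-associated macrophages. They were taken by name from the 31053 genes of the deposited matrices, in cells with at least 500 detected genes and at most 15% mitochondrial UMIs (unique molecular identifiers, each marking 1 captured transcript). The cells came from mammary adenocarcinomas of 3 mice of strain FVB/N-Tg(MMTVPyVT)634Mul/J, in which the MMTV promoter drives the polyoma middle T oncogene in mammary epithelium. Each mouse gave 1 tumour of 750 mm3, and its cells were sorted as CD45+ Ly6G- CD11b+ F4/80+ before 10x 3' v3 library preparation. All 3 libraries formed 1 untreated group, with no age given in the labels and no tumour-free control, so the comparisons were made between macrophage states within the mice.

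The members differ in what switches them on and in what they bind. IRF9 is the DNA-binding subunit of the complex ISGF3, which binds the interferon-stimulated response element (ISRE) after type I interferon signalling, and IRF7, itself an interferon target, then amplifies transcription of type I interferon genes. IRF1 is induced by interferon gamma, while IRF2 can occupy the same sites and oppose it. IRF5 acts downstream of Toll-like receptors and MyD88 in induction of inflammatory cytokines. IRF8 and IRF4 bind composite elements together with PU.1 or with AP-1 factors of the BATF family; IRF8 is a lineage factor of monocytes and macrophages, and IRF4 is known from alternatively activated macrophages and a subset of dendritic cells.

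The stretches upstream of 4 members are shown because their genes had the patterns described below or carried a searched motif. Each runs 5′ to 3′ in the direction of the gene over 190 bases, from position -250 to -61 relative to the annotated transcript start, from RefSeq on build GRCm38.p6. Irf1 lies on the plus strand (chr11:53769764-53769953), as do Irf8 (chr8:120736108-120736297) and Irf2 (chr8:46739495-46739684), and Irf7 lies on the minus strand (chr7:141266485-141266674). Capitals mark matches to the searched motifs.
Irf1: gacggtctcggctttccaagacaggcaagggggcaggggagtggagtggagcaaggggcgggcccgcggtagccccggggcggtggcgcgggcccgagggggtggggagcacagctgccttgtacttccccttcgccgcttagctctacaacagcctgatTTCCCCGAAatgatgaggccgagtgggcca
Irf8: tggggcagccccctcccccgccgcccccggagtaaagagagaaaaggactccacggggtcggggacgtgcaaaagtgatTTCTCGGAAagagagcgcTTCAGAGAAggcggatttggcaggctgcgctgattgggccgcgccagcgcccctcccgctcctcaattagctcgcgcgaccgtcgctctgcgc
Irf2: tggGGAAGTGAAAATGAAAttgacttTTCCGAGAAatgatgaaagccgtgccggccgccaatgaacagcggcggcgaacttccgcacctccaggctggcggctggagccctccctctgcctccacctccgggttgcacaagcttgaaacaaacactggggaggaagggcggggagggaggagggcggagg
Irf7: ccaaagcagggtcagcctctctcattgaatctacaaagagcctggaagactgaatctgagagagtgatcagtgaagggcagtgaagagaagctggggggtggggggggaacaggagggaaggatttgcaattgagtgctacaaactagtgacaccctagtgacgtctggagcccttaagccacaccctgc
The searched motifs were the ISRE (GAAA, any 2 bases, GAAA), the ETS-IRF composite element or EICE (GGAA, any 2 bases, GAAA), the STAT-binding gamma-activated sequence or GAS (TTCNNNGAA) and the NF-kB site (GGG, any 2 bases, TTTCC). Both strands of the 300 bases around each annotated start were searched, and an ISRE and an EICE can overlap. Irf1 had a GAS at -90 and Irf8 had GAS matches at -171 and -153. Both genes have a further annotated start, with windows at chr11:53770223-53770522 and chr8:120738389-120738688, and neither of these windows held a match. The Irf2 window held an EICE at -247 that overlaps an ISRE at -241, a GAS at -224 and an NF-kB match at -17, beyond the printed stretch. No match lay in the windows of Irf4, Irf5, Irf7 or Irf9. Among 32851 promoter windows of the same length, 3.44% held the ISRE, 2.72% the EICE, 8.30% the GAS and 1.63% the NF-kB motif. A match describes letters only.

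The filters kept 663, 2108 and 6978 cells of mice 1, 2 and 3, with medians of 15014, 13600 and 9318.5 UMIs. Barcodes above 15% mitochondrial UMIs made up 36.03%, 12.1% and 4.13% of the 3 libraries, so the library of mouse 1 stood apart. No kept barcode was shared between mouse 1 and another mouse, and 7 were shared by mice 2 and 3. The macrophage label was borne out by its defining genes in the cells taken below as macrophage classes. Csf1r had a UMI in 95.1% to 96.7% of these cells per mouse, Adgre1 (F4/80) in 85.02% to 88.5%, and the neutrophil gene Ly6g in 0 cells. Clustering, done without the members and the listed pathway genes, gave 16 clusters. Interferon-induced genes outside these lists, among them Ifit2 and Oasl2, were used to cluster. A cluster of 58 tumour epithelium-like cells was set aside, and the other 15, with 9691 cells, were taken as macrophage classes. By marker genes, 7 of them were LYVE-1 resident-like (clusters 1 and 14), hypoxia-like (4), cycling-like (5 and 13), inflammatory-like (6) and interferon-like (11). The other 8 are called here by number and a leading gene: Cd207 (0), Ccl7 (2), Gdf15 (3), the heat-shock gene Hspa1a (7), Txnip (8), few UMIs (9), Retnla (10) and Rps6kb1 (12). LYVE-1 resident markers were higher in clusters 2 and 10 too, with 9 and 8 of 12 against 7 in cluster 1, and Lyve1 itself was among them in clusters 2 and 10 but not in cluster 1. The list summed to 1831 to 2331 CPM (UMIs of a gene per 1000000 UMIs of the cells summed) in cluster 2, 1066 to 1436 in cluster 10, 951 to 995 in cluster 1 and 8586 to 9585 in cluster 14. Clusters 2 and 10 kept a number because the list did not outnumber every other list among their 10 leading genes, so the names do not follow the level of this list. Clusters 11, 13 and 14 had fewer than 10 cells in mouse 1 and were tested on mice 2 and 3; where 1 of these mice is left out, such a class is 1 library, which is assumed to vary like the other classes.

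Levels are given as CPM. Over all macrophages of a mouse, Irf8 stood at 233, 244 and 202 CPM in mice 1, 2 and 3, Irf5 at 100.3, 97.5 and 109, and Irf2 at 74.3, 78.3 and 64.8. Irf7 was at 52.3, 42.8 and 45.5 CPM. Irf1 was at 34.4, 41.4 and 24.3 CPM and Irf9 at 33.8, 32.8 and 22.1, both lowest in mouse 3. Irf4 differed most between the animals, at 4.22, 29.1 and 8.11 CPM, and mouse 2 was the high one. The remaining family gene of innate sensing, Irf3, was at 29.1 ± 2.06 CPM (mean ± SD, n = 3 mice). In the 58 epithelium-like cells Irf4 had 0 UMIs, Irf5 15.9 CPM, Irf8 44.1 CPM and Irf7 111 CPM (63 UMIs), so the epithelium-like cells were above the macrophages for Irf7. The milk protein gene Csn3, which macrophages should lack, had a UMI in 13.2% to 17.7% of the cells in macrophage classes per mouse. Rnf31 overlaps Irf9 on the same strand of the annotation (1393 UMIs against 3590 for Irf9), so the division of reads between the 2 genes depends on the counting.

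Each class was compared with the unweighted mean of the other classes by edgeR's quasi-likelihood test with the mouse as a block, and a gene was called at a Benjamini-Hochberg adjusted p under 0.05 over 8946 genes. The class borders came from the same cells, so the p-values do not measure whether the class exists. They set a difference against a spread estimated over all classes and mice together, so a low p does not require every mouse to show the direction. Of 105 pairs of member and class, 15 were called higher (14.3%), 20 lower (19.0%) and 70 neither way; of all pairs of tested gene and class, 10.2% were called higher and 6.62% lower. The spans were unequal. The highest class mean was 95.9 times the lowest for Irf4 and 35.3 times for Irf7, against 1.58 times for Irf5 and 1.98 times for Irf2; for Irf1, Irf9 and Irf8 it was 3.36, 3.11 and 2.42 times.

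**Figure D1:**
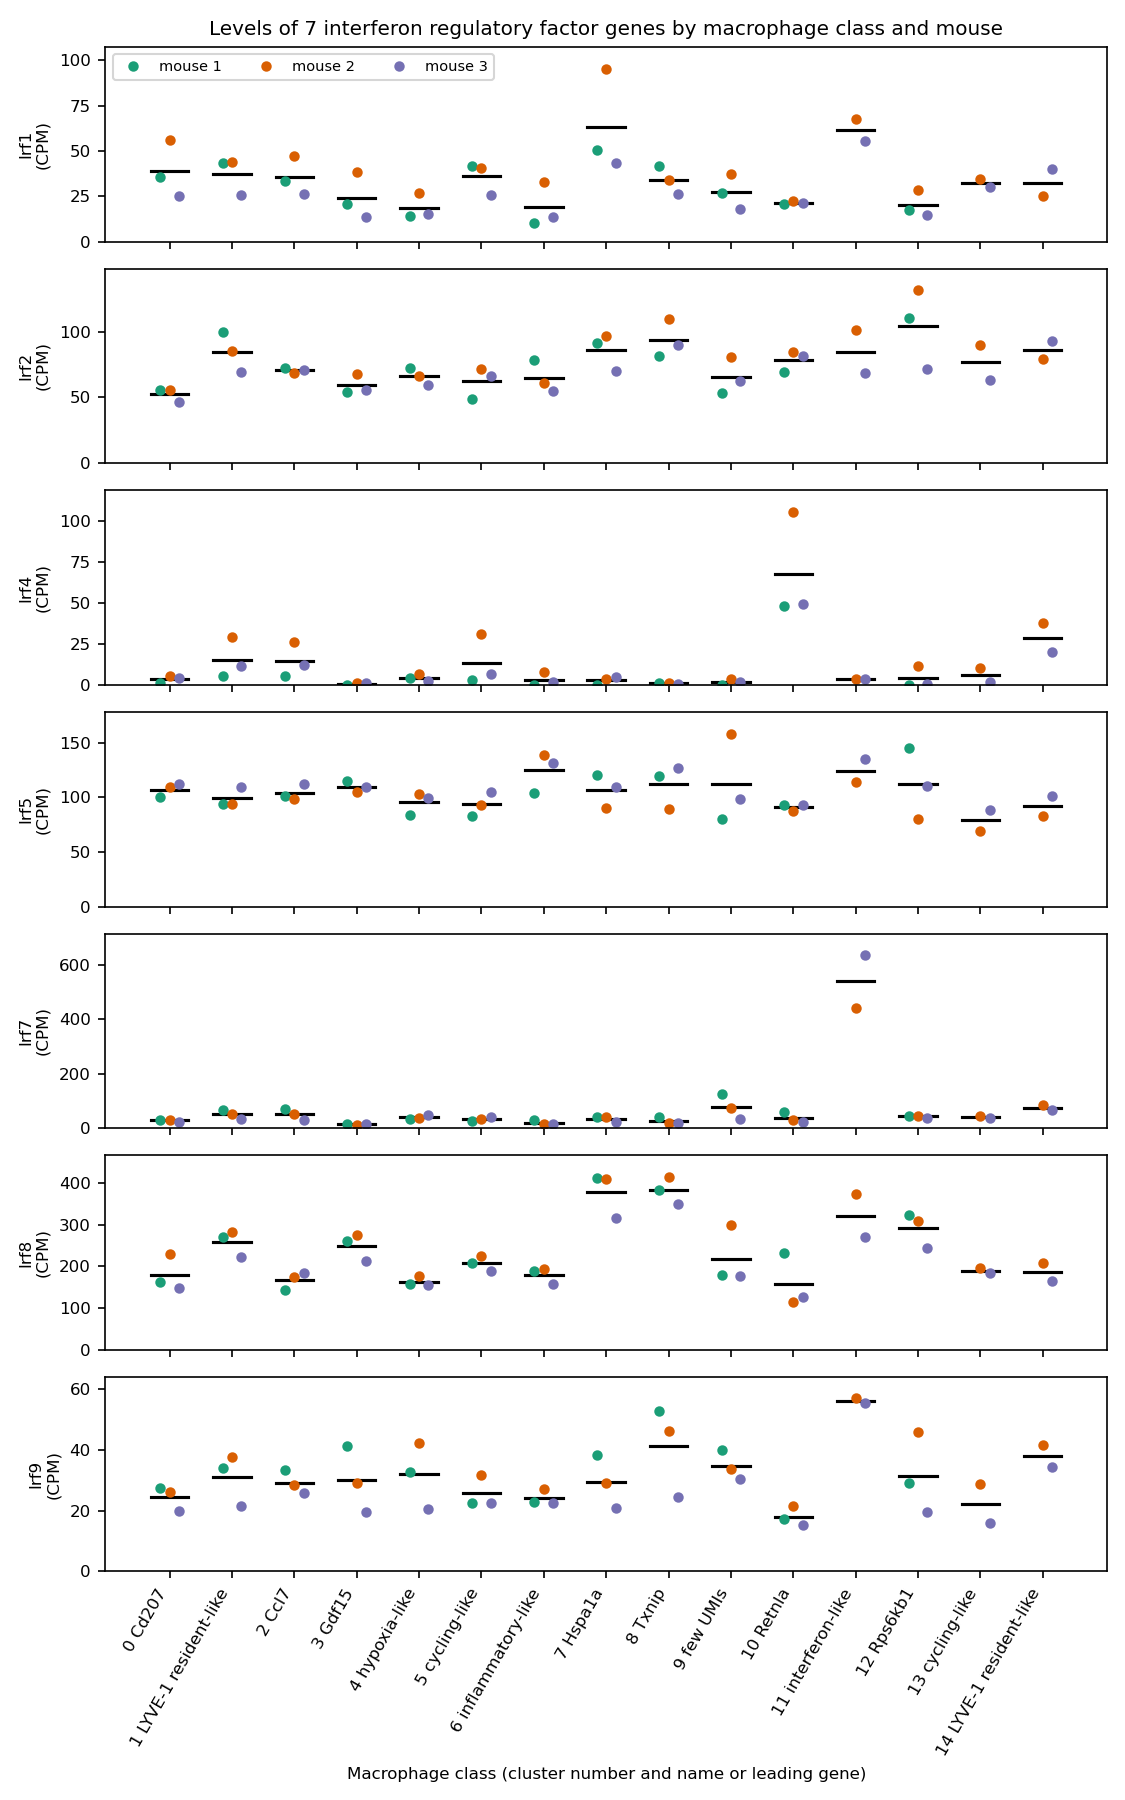
Level of each member (CPM, linear axis from 0) in each of 15 macrophage classes; points are mice, and the bar is their mean. Irf7 reaches 442 and 635 CPM in the interferon-like class and Irf4 48.4 to 106 CPM in the Retnla class, while the points of Irf5 and Irf2 overlap across neighbouring classes.

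Irf7, the amplifier of type I interferon transcription, was highest in the interferon-like class. There it was at 442 CPM in mouse 2 and 635 CPM in mouse 3 (538 ± 137, SD, n = 2), and the 7 cells of that class in mouse 1, left out of the test, had 69 Irf7 UMIs or 587 CPM (95% Poisson interval 457 to 743, for counting error only). The next class in order, the few-UMI cluster 9, was at 126, 74.1 and 34.3 CPM, and the lowest, the Gdf15 cluster 3, at 16.8, 13.1 and 15.9. No other class of any mouse exceeded 126 CPM, while every other neighbouring pair of classes in the order overlapped. The log2 fold change was 4.13 ± 0.17 (SE; adjusted p = 6.9e-17 by edgeR's quasi-likelihood test), higher in 2 of 2 mice. This class held 1.06%, 1.36% and 2.30% of the macrophage UMIs of mice 1, 2 and 3 but 11.9%, 14.1% and 32.04% of the Irf7 UMIs. The call was kept in 19 of 19 alternatives, with log2 changes of 3.65 to 4.46.

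Irf9, Irf1 and Irf8 were also higher in the interferon-like class, which made 4 of the 7 members, where 4.85% of all tested genes were called higher. The median log2 change of the members was 0.61, against -0.01 over all tested genes. Irf9 was at 56.8 and 55.2 CPM in mice 2 and 3, above the next class, the Txnip cluster 8 (52.8, 46.3 and 24.4), with a log2 change of 1.24 ± 0.16 (adjusted p = 3.1e-08, edgeR quasi-likelihood). Irf1 was at 67.8 and 55.2 CPM (log2 change 1.20 ± 0.21, adjusted p = 6.9e-05, edgeR), which overlapped the Hspa1a cluster 7. Irf8 was at 374 and 270 CPM (log2 change 0.61 ± 0.12, adjusted p = 0.00018, edgeR). Without mouse 3, which held 176 of the 222 cells, the log2 changes of Irf9, Irf1 and Irf8 were 0.85, 0.92 and 0.70 and none of the 3 was called (adjusted p = 0.236, 0.240 and 0.0711, edgeR), with 1 library left in the class and its spread taken from the others. With no mouse block Irf1 also lost its call (1.08, adjusted p = 0.071, edgeR). Irf4 was at 3.66 and 3.58 CPM there, Irf2 at 100.8 and 68.5, and Irf5 at 114 and 135, and none of these passed the test.

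The genes around the IRFs in this class were taken from lists that were left out of clustering. Ifit2, Oasl2 and other interferon-induced genes were used to cluster, so the class border is not independent of these lists or of the members. Of 19 tested type I interferon targets, 19 were higher, with a median log2 change of 2.38, among them the antiviral GTPase Mx1 (5.50 ± 0.23; 141 ± 22.9 CPM) and the oligoadenylate synthetase Oas3 (4.72 ± 0.25). Interferon gamma targets were higher in 18 of 19 (median 2.33), led by the GTPase Iigp1 (5.46 ± 0.42) and the chemokine Cxcl9 (4.43 ± 0.70), whose level differed widely between the 2 mice (200.2 ± 170 CPM). Of receptors, JAKs and STATs 7 of 21 were higher, among them Usp18 (5.15 ± 0.30), a brake on the type I receptor. Sensors and adaptors upstream of IRF activation were higher in 8 of 27, with the RNA sensor Ddx58 (3.60 ± 0.19) and the nucleic acid sensor Zbp1 (3.44 ± 0.12) the largest. Of DNA-binding partners and inhibitors 3 of 21 were higher, with Batf2 (2.13 ± 0.39) and the ubiquitin ligase Trim21 (2.08 ± 0.45) the largest. All named genes had adjusted p-values of 0.00084 or lower by edgeR's quasi-likelihood test. The interferon ligands themselves were scarce in the tested macrophage classes: Ifnb1 had 144 UMIs over these classes and Ifnk 227, Ifnab 2, and the other 18 genes of the list 0.

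Irf7 was lower in the Gdf15 cluster 3 (log2 change -1.57 ± 0.26, adjusted p = 0.00027), the inflammatory-like cluster 6 (-1.16 ± 0.31, adjusted p = 0.0072) and the Txnip cluster 8 (-1.19 ± 0.27, adjusted p = 0.0012), all by edgeR's quasi-likelihood test and in 3 of 3 mice. Its levels were 30.5, 16.6 and 15.2 CPM in the inflammatory-like class and 42.6, 17.4 and 17.2 in the Txnip class, highest in mouse 1 in both. Without mouse 2 these calls were lost, with log2 changes of -1.49, -1.11 and -1.02 (adjusted p = 0.0902, 0.190 and 0.110, edgeR). Type I interferon targets were lower in 12 of 19 in the Gdf15 cluster, where 3.13% of all tested genes were called lower, and in 9 of 19 in the inflammatory-like class, where the share was 8.53%. In the Txnip cluster 2 of 19 were lower and 1 higher, with 13.8% of all tested genes called lower and 19.2% higher. In the Gdf15 cluster 4 members were lower in all, Irf7, Irf4, Irf1 and Irf2, and the median over the 7 members was -0.37, against 0.03 over all tested genes. With cells limited to at most 8% mitochondrial UMIs none of the 4 lower calls was kept: Irf7 was at -0.86 (adjusted p = 0.07), Irf4 at -0.73 (adjusted p = 0.273) and Irf2 at -0.01 (adjusted p = 0.989), and Irf1 turned from -0.60 to 0.52 (adjusted p = 0.0111, edgeR). For Irf1, without mouse 3 it was -0.20 (adjusted p = 0.794) and without mouse 1 -0.58 (adjusted p = 0.0779).

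**Figure D2:**
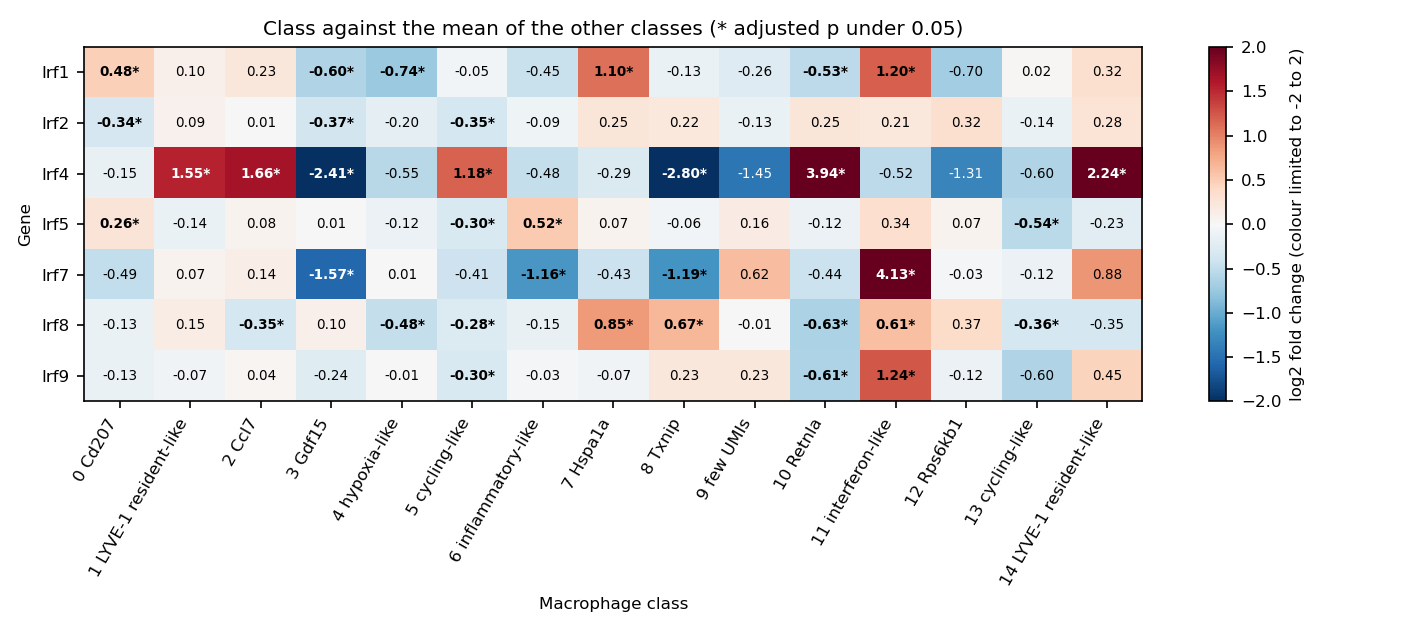
Log2 fold change of each member (rows) in each macrophage class (columns) against the mean of the other classes; red is higher, blue lower, colour is limited to -2 to 2 and bold values with * have an adjusted p under 0.05. The extremes are Irf7 in the interferon-like class (4.13) and Irf4 in the Retnla class (3.94).

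Irf4 was highest in the Retnla class. In cluster 10, led by Retnla, Lyz1, Ear2 and Fn1, Irf4 was at 48.4, 106 and 49.1 CPM in mice 1, 2 and 3 (67.7 ± 32.8, SD, n = 3), and all 3 values lay above those of every other tested class. The value of mouse 1 rests on 14 UMIs in 12 cells, against 148 and 164 cells in mice 2 and 3. The log2 change was 3.94 ± 0.18 (adjusted p = 2.8e-22, edgeR quasi-likelihood), higher in 3 of 3 mice and called in 19 of 19 alternatives. Cluster 10 carried 2.60%, 12.03% and 3.75% of the macrophage UMIs of mice 1, 2 and 3 but 29.8%, 43.7% and 22.7% of the Irf4 UMIs. Of its cells 57.2% ± 15.8 had an Irf4 UMI at a median depth of 22247.5 UMIs, and 13.1% ± 7.99 after thinning to 2000 UMIs per cell. Of 40 epithelium-like cells thinned alike 0 had one, which allows a share of up to 7.5%, and their unthinned median depth was 4275 UMIs.

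Irf4 was higher in 4 further classes, all below the Retnla class in mean level. The LYVE-1 resident-like cluster 14 was at 37.5 and 20.03 CPM in mice 2 and 3 (log2 change 2.24 ± 0.48, adjusted p = 0.00044; without mouse 3, with 1 library left and its spread taken from the other classes, it was 2.12, adjusted p = 0.0532). The LYVE-1 resident-like cluster 1 was at 5.57, 29.0 and 11.3 CPM (1.55 ± 0.19, adjusted p = 1.7e-06). The Ccl7 cluster 2 was at 5.63, 26.02 and 12.2 CPM (1.66 ± 0.24, adjusted p = 3.3e-07), called in 20 of 20 alternatives. These 3 differences recurred in every mouse tested, on top of the higher level of mouse 2, and without the mouse block clusters 14 and 1 were not called (adjusted p = 0.0716 and 0.0679, edgeR). Irf4 was 1 of 7 members called higher in each of clusters 14, 1, 2 and 5, where 9.53%, 7.62%, 18.3% and 12.9% of all tested genes were. The cycling-like cluster 5 was at 2.83, 31.3 and 6.51 CPM (1.18 ± 0.22, adjusted p = 3.9e-05), and there the result did not hold: without mouse 2 it was 0.59 (adjusted p = 0.297), and it turned to -1.32 (adjusted p = 0.000914) at a coarser clustering, to -0.54 (adjusted p = 0.166) at a finer one and to -1.03 (adjusted p = 0.0374) with doublets removed, all by edgeR.

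Irf4 was called lower in 2 classes, those with its lowest means. Clusters 9 and 12 held only 2 and 3 Irf4 UMIs and were not called. The Gdf15 cluster 3 had 0, 0.93 and 1.18 CPM (log2 change -2.41 ± 0.45, adjusted p = 0.00034) and the Txnip cluster 8 had 1.01, 1.27 and 0.84 CPM (-2.80 ± 0.56, adjusted p = 9.4e-05, edgeR quasi-likelihood). In both classes mouse 2, the animal with the highest Irf4 level, was at the level of the other mice. Clusters 3 and 8 held 12 and 6 Irf4 UMIs in all, of which mouse 2 had 2 and 3, so these levels are near the floor. The first call was kept in 14 of 19 alternatives and the second in 17 of 20. With 4000 variable genes the values were -1.44 and -2.16 (adjusted p = 1 in both, edgeR), and at most 8% mitochondrial UMIs gave -0.73 (adjusted p = 0.273, edgeR) in cluster 3.

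Partners and pathway genes of IRF4 were measured beside it in the Retnla class. Batf (1.83 ± 0.10; 107 ± 13.4 CPM) and Batf3 (1.73 ± 0.12), AP-1 factors that bind with IRF4 and IRF8, were higher with adjusted p-values of 1.2e-21 and 1.1e-16 by edgeR's quasi-likelihood test. Of the partners 9 of 21 were higher and 1 lower, where 16.6% of all tested genes were called higher and 10.1% lower. Receptors, JAKs and STATs were higher in 9 of 21 and lower in 5, with the kinase Jak2 at 0.91 ± 0.13 and the phosphatase Ptpn2 at 1.11 ± 0.12. Sensors and adaptors were higher in 7 of 27 and lower in 5, with Irak3, an inhibitor of Toll-like receptor signalling, at 1.76 ± 0.20 and Tlr3 at -1.05 ± 0.28. Type I interferon targets gave 1 higher, the nuclease Samhd1 (1.35 ± 0.08), and 5 lower of 19, among them Bst2 (-0.74 ± 0.10). Dendritic cell markers, whose subset uses IRF4, summed to 36.6 to 290.4 CPM per mouse in cluster 10, 192 to 289 in cluster 14 and 4.85 to 145 in the other classes. Most of that sum was Cd209a, at 266, 26.7 and 29.4 CPM in mice 1, 2 and 3 in cluster 10. Of the other dendritic genes there, Flt3 and Clec9a were each at 0, 0.21 and 0 CPM, Xcr1 at 0, 0.41 and 0.31, and Itgae at 0 in every mouse. Siglech was at 3.46, 4.98 and 3.44 CPM, Ccr9 at 3.46, 2.28 and 0.31 and Fscn1 at 3.46, 0.41 and 0. Zbtb46 was at 6.91, 5.18 and 1.56 CPM and Dpp4 at 6.91, 3.73 and 1.56, where each value of mouse 1 rests on 2 UMIs. Zbtb46 was at 0 in clusters 7, 8, 9, 11, 12 and 13 and had UMIs in every other tested class. Monocyte markers summed to 951 to 1559 CPM in cluster 10, and 8 of 12 LYVE-1 resident and 6 of 12 MHC class II markers were higher in it. The 4 classes with the highest LYVE-1 sums, clusters 14, 2, 10 and 1, were all among the 5 in which Irf4 was called higher, and the list summed to 66.5 to 695 CPM in the others. The part of dendritic, monocyte, LYVE-1 or MHC class II markers in the Irf4 level was not tested.

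Irf8 and Irf1 were high together in the Hspa1a class, whose leading genes are heat-shock and immediate-early genes. Irf8 was at 411, 411 and 315 CPM in mice 1, 2 and 3 (log2 change 0.85 ± 0.09, adjusted p = 1.1e-09), and Irf1 at 50.5, 95.3 and 43.5 CPM (1.10 ± 0.15, adjusted p = 2.4e-06, edgeR quasi-likelihood). Both recurred in 3 of 3 mice and were called in 18 of 18 alternatives. They were 2 of 7 members, where 7.66% of all tested genes were called higher. The dissociation stress list, genes known to be induced when tissue is digested, summed to 14217 to 15482 CPM in this class against 2106 to 10609 in the others, and its part in these levels was not tested. The AP-1 subunit Jun, a member of that response and a partner of the IRFs, was at 2.36 ± 0.15, and Junb at 0.93 ± 0.10. Lower were the targets Oas3 (-1.71 ± 0.58) and Parp14 (-0.60 ± 0.15), with adjusted p-values of 0.043 or lower by edgeR. Of the type I targets 5 of 19 were lower, where 4.46% of all tested genes were, and 0 were higher.

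Irf8 was also higher in the Txnip cluster 8, at 385, 415 and 351 CPM (log2 change 0.67 ± 0.09, adjusted p = 5.3e-08, edgeR quasi-likelihood), called in 20 of 20 alternatives, where 19.2% of all tested genes were called higher. Here the stress list summed to 2365 to 2945 CPM, below every mouse of the Hspa1a class. The classes with the lowest Irf8 means were the Retnla cluster 10, at 232, 116 and 128 CPM, the hypoxia-like cluster 4, at 158, 176 and 156, and the Ccl7 cluster 2, at 144, 175 and 184. Irf8 was called lower in these (-0.63 ± 0.11, -0.48 ± 0.10 and -0.35 ± 0.10, adjusted p = 1e-05, 0.0008 and 0.0051, edgeR) and in both cycling-like clusters, 5 and 13 (-0.28 ± 0.10 and -0.36 ± 0.13, adjusted p = 0.031 and 0.048). The call in cluster 4 was lost with doublets removed (-0.19, adjusted p = 0.304), with at least 1000 genes per cell (-0.19, adjusted p = 0.208), with separate UMIs for clusters and tests (-0.24, adjusted p = 0.226) and without the mouse block (-0.48, adjusted p = 0.0955, edgeR). Of all tested genes 10.1%, 4.45%, 11.5%, 9.01% and 7.44% were called lower in clusters 10, 4, 2, 5 and 13. In cluster 10 only mice 2 and 3 showed the direction, and without mouse 2 the value was -0.35 (adjusted p = 0.101). Without mouse 2 the calls in clusters 2, 5 and 13 were lost too (-0.31, -0.25 and -0.25, adjusted p = 0.068, 0.218 and 0.435), as they were without mouse 1 in cluster 2 (-0.25, adjusted p = 0.0631) and without mouse 3 in clusters 5 and 13 (-0.29 and -0.57, adjusted p = 0.272 and 0.177), all by edgeR. Scaled by library totals, without TMM factors, Irf8 in clusters 5 and 13 was not called (-0.12 and -0.21).

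Irf1 was higher in the Cd207 cluster 0 as well, at 35.5, 55.7 and 25.4 CPM (log2 change 0.48 ± 0.13, adjusted p = 0.0075), where 14.1% of all tested genes were called higher, and lower in the hypoxia-like cluster 4, at 13.9, 27.06 and 15.4 CPM (-0.74 ± 0.17, adjusted p = 0.0023), and in the Retnla cluster 10, at 20.7, 22.2 and 21.3 CPM (-0.53 ± 0.18, adjusted p = 0.026, edgeR quasi-likelihood). Mouse 2 was the highest in all 3 classes. The call in cluster 0 was lost without mouse 2 (0.31, adjusted p = 0.220) and when scaled by library totals (0.28, adjusted p = 0.0941), the call in cluster 4 without mouse 3 (-0.73, adjusted p = 0.0898), and the call in cluster 10 without any 1 of the mice (-0.55, -0.19 and -0.69 without mice 1, 2 and 3, adjusted p = 0.0503, 0.698 and 0.0542).

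Irf9 was lower in the Retnla cluster 10, at 17.3, 21.4 and 15.3 CPM (log2 change -0.61 ± 0.14, adjusted p = 0.00052; without mouse 2 -0.63, adjusted p = 0.0764, edgeR). With Irf1 and Irf8 this made 3 members lower there, beside the higher Irf4, where 10.1% of all tested genes were called lower, and the median of the 7 was -0.44, against -0.00 over all tested genes.

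Irf5 and Irf2 varied least. Irf5 was highest in the inflammatory-like cluster 6, at 104, 139 and 131 CPM (log2 change 0.52 ± 0.10, adjusted p = 8.1e-05, edgeR quasi-likelihood), higher in 3 of 3 mice, where 12.3% of all tested genes were called higher. The interferon-like class had almost the same mean (124 CPM), and a score per cell summed over the inflammatory markers, in place of the cluster, did not call Irf5 (0.21, adjusted p = 0.287, edgeR), with 97.4, 107 and 112 CPM in the lowest bins and 85.0, 112 and 114 in the highest. Its value in cluster 6 was 0.26 with clusters and tests on separate UMIs (adjusted p = 0.0979, edgeR) and 0.33 with cells thinned to 2000 UMIs (adjusted p = 0.210, edgeR), so it was not called in either. The cycling-like cluster 13 had the lowest mean, 69.3 and 88.7 CPM in mice 2 and 3 (-0.54 ± 0.15, adjusted p = 0.0051), with -0.45 and -0.79 without mouse 2 and without mouse 3 (adjusted p = 0.113 and 0.115, edgeR), where 1 library is left in the class and its spread comes from the others. Irf2 was lower in the Cd207 cluster 0, at 55.7, 56.0 and 46.5 CPM (-0.34 ± 0.10, adjusted p = 0.011), in the Gdf15 cluster 3, at 54.1, 67.8 and 55.6 CPM (-0.37 ± 0.11, adjusted p = 0.021), and in the cycling-like cluster 5, at 49.0, 71.4 and 66.4 CPM (-0.35 ± 0.10, adjusted p = 0.0057, edgeR). Without mouse 2 these 3 values were -0.31, -0.40 and -0.34 and none was called (adjusted p = 0.195, 0.239 and 0.141, edgeR), and without mouse 3 neither cluster 0 (-0.29, adjusted p = 0.292) nor cluster 3 (-0.41, adjusted p = 0.252) was.

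The remaining calls were small. Irf5 was higher in cluster 0 (0.26 ± 0.09, in 2 of 3 mice, adjusted p = 0.029) and lower in cluster 5 (-0.30 ± 0.09, adjusted p = 0.015), and Irf9 was lower in cluster 5 (-0.30 ± 0.10, adjusted p = 0.027, edgeR quasi-likelihood). In cluster 5 the lower members were thus Irf2, Irf5, Irf8 and Irf9, where 9.01% of all tested genes were called lower. In cluster 0 the share of all tested genes was 14.1% higher and 9.92% lower. Scaled by library totals the calls of these 4 in cluster 5 and of Irf5 in cluster 0 were lost (values of -0.19, -0.13, -0.12 and -0.13, and 0.06), and each was lost without at least 1 mouse (Irf5 in cluster 0 at 0.24 and 0.32 without mice 2 and 3; Irf5 in cluster 5 at -0.29 and -0.33; Irf9 at -0.23, -0.35 and -0.38 without mice 1, 2 and 3). Scaled by library totals, 28 of the 35 calls of members were kept and no value changed sign. The share of higher among all calls moved with this scaling from 58.7% to 19.8% in cluster 0, 69.5% to 94.5% in cluster 1, 61.3% to 50.1% in cluster 2, 57.6% to 73.5% in cluster 3, 58.9% to 91.1% in cluster 5 and 59.0% to 23.1% in cluster 6. In clusters 7, 8, 10 and 13 it moved from 63.2% to 48.0%, 58.1% to 80.6%, 62.1% to 44.0% and 62.1% to 82.7%. In cluster 9 edgeR called 0 of 7 members and in cluster 12 also 0, with 0 and 2 at an unadjusted p under 0.05 and 0 and 1 by DESeq2. The shares of all tested genes called there were 7.46% and 3.23%.

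A second view did not use cluster borders. Cells were thinned to 2000 UMIs, scored by their summed UMIs of a marker list that holds no IRF gene, and divided by score into 4 equal bins within each mouse. For the LYVE-1 resident, interferon, hypoxia, cycling and monocyte lists the lowest bin had scores of 0 in every mouse, and for all of these except hypoxia the next bin did too, so those bins are a random split of tied cells. With the interferon score of mouse 3 the third bin also had scores of 0 only. The highest bin there ran from 0 to 75 with a median of 1, so it too held tied cells placed at random. Highest and lowest bins were compared in the same edgeR test, and 15 of 63 pairs of member and score were called higher (23.8%) and 6 lower (9.52%), against 8.12% and 6.40% of all pairs of tested gene and score.

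**Figure D3:**
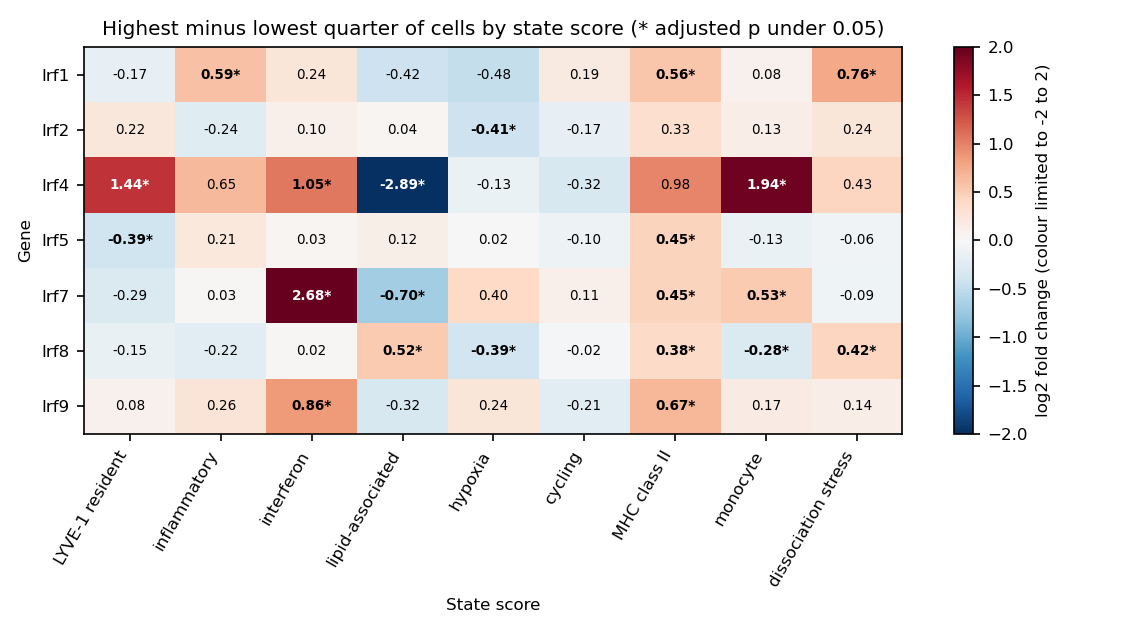
Log2 fold change of each member (rows) between the highest and lowest of 4 equal bins of cells by 9 state scores (columns); red is higher in the highest bin, colour is limited to -2 to 2 and bold values with * have an adjusted p under 0.05. Irf7 with the interferon score (2.68) and Irf4 with the lipid-associated score (-2.89) are the extremes.

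By interferon score, Irf7 was at 42.2, 17.1 and 17.3 CPM in the lowest bins of mice 1, 2 and 3 and at 108, 125 and 124 in the highest, and the groups did not overlap. The log2 change was 2.68 ± 0.17 (adjusted p = 7.9e-20, edgeR quasi-likelihood), and it was called in 10 of 10 alternatives. Irf9 went from 29.2, 30.1 and 18.5 CPM to 35.9, 54.3 and 34.7 (0.86 ± 0.19, adjusted p = 0.0012), a call lost without mouse 2 (0.82, adjusted p = 0.109) or mouse 3 (0.75, adjusted p = 0.291, edgeR). Irf4 was called higher too (1.05 ± 0.30, adjusted p = 0.036, edgeR) but in 2 of 3 mice, and without mouse 2 it was not (1.04, adjusted p = 0.843), nor without mouse 3 (0.89, adjusted p = 0.423). These 3 members compare with 2.43% of all tested genes called higher. Irf1 (0.24, adjusted p = 0.753) and Irf8 (0.02, adjusted p = 0.985, edgeR) did not pass here, although both had passed in the interferon-like class. The highest bins were far larger than that class, with 497 and 1671 cells against 39 and 176 in mice 2 and 3. The part of this in the difference was not tested.

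Irf4 ran against the lipid-associated score, built on genes such as Trem2, Spp1 and Gpnmb. In mice 1, 2 and 3 the lowest bins held 4, 54 and 44 Irf4 UMIs and the highest 0, 2 and 10, or 26.8 ± 23.8 CPM against 1.67 ± 1.53. The log2 change was -2.89 ± 0.41 (adjusted p = 3.2e-07, edgeR quasi-likelihood), called in 9 of 9 alternatives. It rose with the monocyte score (1.94 ± 0.34, adjusted p = 1.3e-05) and the LYVE-1 resident score (1.44 ± 0.30, adjusted p = 0.00015, edgeR), in 3 of 3 mice each. Irf8 had the opposite sign with these: it was higher with the lipid-associated score, from 198, 210 and 175 CPM to 232, 269.6 and 227 (0.52 ± 0.10, adjusted p = 0.00013), and lower with the monocyte score (-0.28 ± 0.10, adjusted p = 0.04). The first of these was not called without mouse 3 (0.47, adjusted p = 0.0578), and the second without any 1 of the mice (-0.23, -0.24 and -0.44, adjusted p = 0.0746, 0.440 and 0.102, edgeR). Irf7 was lower with the lipid-associated score (-0.70 ± 0.17, adjusted p = 0.0014; without mouse 3 -0.36, adjusted p = 0.496) and higher with the monocyte score (0.53 ± 0.17, adjusted p = 0.019; without mouse 2 0.41, adjusted p = 0.279, edgeR). Of all tested genes 9.81% were called higher and 11.2% lower with the lipid-associated score, 9.02% and 7.66% with the monocyte score, and 10.5% and 9.21% with the LYVE-1 resident score, with which Irf5 was lower (-0.39 ± 0.12, adjusted p = 0.0088; without mouse 2 not called, adjusted p = 0.147, edgeR).

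The stress score separated Irf1 and Irf8 as the Hspa1a class did. Irf1 went from 19.5, 31.1 and 24.5 CPM to 55.6, 67.4 and 35.01 (0.76 ± 0.17, adjusted p = 0.0009) and Irf8 from 231, 234 and 181 CPM to 317, 307 and 251 (0.42 ± 0.09, adjusted p = 0.00037, edgeR quasi-likelihood). In neither did the groups overlap, and 9.54% of all tested genes were called higher. Irf1 was not called without mouse 2 (0.60, adjusted p = 0.112) and Irf8 not without mouse 3 (0.42, adjusted p = 0.0742, edgeR). With the hypoxia score Irf8 (-0.39 ± 0.09, adjusted p = 0.002) and Irf2 (-0.41 ± 0.13, adjusted p = 0.036) were lower, where 3.07% of all tested genes were. Without mouse 2 neither was called (-0.35 and -0.36, adjusted p = 0.220 and 0.494, edgeR), and Irf2 was not called without mouse 1 (-0.38, adjusted p = 0.0643) or mouse 3 (-0.57, adjusted p = 0.226) either. With the inflammatory score Irf1 was called higher (0.59 ± 0.19, adjusted p = 0.02), where 11.5% of all tested genes were, but its bins overlapped, at 32.5, 40.2 and 20.6 CPM in the lowest and 32.7, 47.3 and 30.2 in the highest. In the inflammatory-like cluster 6 Irf1 was not called and had the next to lowest class mean, 19.0 CPM. The Cd207 cluster 0, where Irf1 was called higher, also had 8 of 12 inflammatory markers higher, against 10 in cluster 6. The inflammatory list summed to 13262 to 25772 CPM in cluster 0 and 15561 to 34802 in cluster 6. The score call was lost without mouse 2 (0.67, adjusted p = 0.0992) or mouse 3 (0.45, adjusted p = 0.405, edgeR).

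With the MHC class II score 5 members were called, and none of the calls survived scaling by library totals. With DESeq2 size factors in place of TMM factors, 20 of the 21 member calls over all scores were kept. Irf1, Irf5, Irf7, Irf8 and Irf9 were called higher, with log2 changes of 0.56 ± 0.19, 0.45 ± 0.11, 0.45 ± 0.16, 0.38 ± 0.10 and 0.67 ± 0.19, where 11.1% of all tested genes were called higher. The levels themselves moved little: Irf8 averaged 219.6 ± 18.5 CPM in the lowest and 243 ± 30.8 in the highest bin, and Irf7 46.1 ± 7.75 and 51.9 ± 15.4, and the groups overlapped for all 5. Scaled by library totals in place of TMM factors, the log2 changes were 0.29, 0.18, 0.18, 0.11 and 0.40 and none of the 5 was called. The same scaling moved the median of all genes by -0.27 and the share of higher among all calls from 61.3% to 13.99%. Each of the 5 calls was also lost without mouse 3 (0.36, 0.59, 0.13, 0.42 and 0.64), and those of Irf1, Irf8 and Irf9 without mouse 2 (0.65, 0.38 and 0.55). For the other scores the share of higher calls moved by over 10 points with the inflammatory (66.4% to 25.8%), lipid-associated (46.7% to 20.6%), monocyte (54.1% to 67.6%), LYVE-1 resident (53.3% to 64.2%) and cycling (54.8% to 78.1%) scores, and of the calls above Irf1 with the inflammatory score (0.39) and Irf8 with the monocyte score (-0.21) were lost. With the cycling score edgeR called 0 of 7 members, with 0 at an unadjusted p under 0.05 and 0 called by DESeq2, where 9.83% of all tested genes were called.

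Across the 15 classes, the mean log2 levels of 5 of the 21 pairs of members had a Pearson r of 0.5 or more. As a description over classes that share libraries and depth, r was 0.68 for Irf7 and Irf9, 0.56 for Irf2 and Irf8, 0.56 for Irf8 and Irf9, 0.52 for Irf1 and Irf7, and 0.51 for Irf1 and Irf8. The pairs with Irf7 rested on 1 class: without the interferon-like class r was 0.30 for Irf7 and Irf9 and 0.20 for Irf1 and Irf7. The others of the 5 were then at 0.54 for Irf2 and Irf8, 0.49 for Irf8 and Irf9 and 0.43 for Irf1 and Irf8. Leaving out that class also moved Irf4 with Irf7 from 0.18 to 0.46 and Irf5 with Irf7 from 0.16 to -0.44. Irf4 ran against Irf5 (r = -0.55) and Irf8 (-0.54), and without the interferon-like class these were -0.58 and -0.55. By ranks Irf4 had a rho of -0.76 with Irf5 and -0.54 with Irf8, and 2 pairs reached 0.5, Irf7 with Irf9 and Irf5 with Irf8 (0.52 each).

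**Figure D4:**
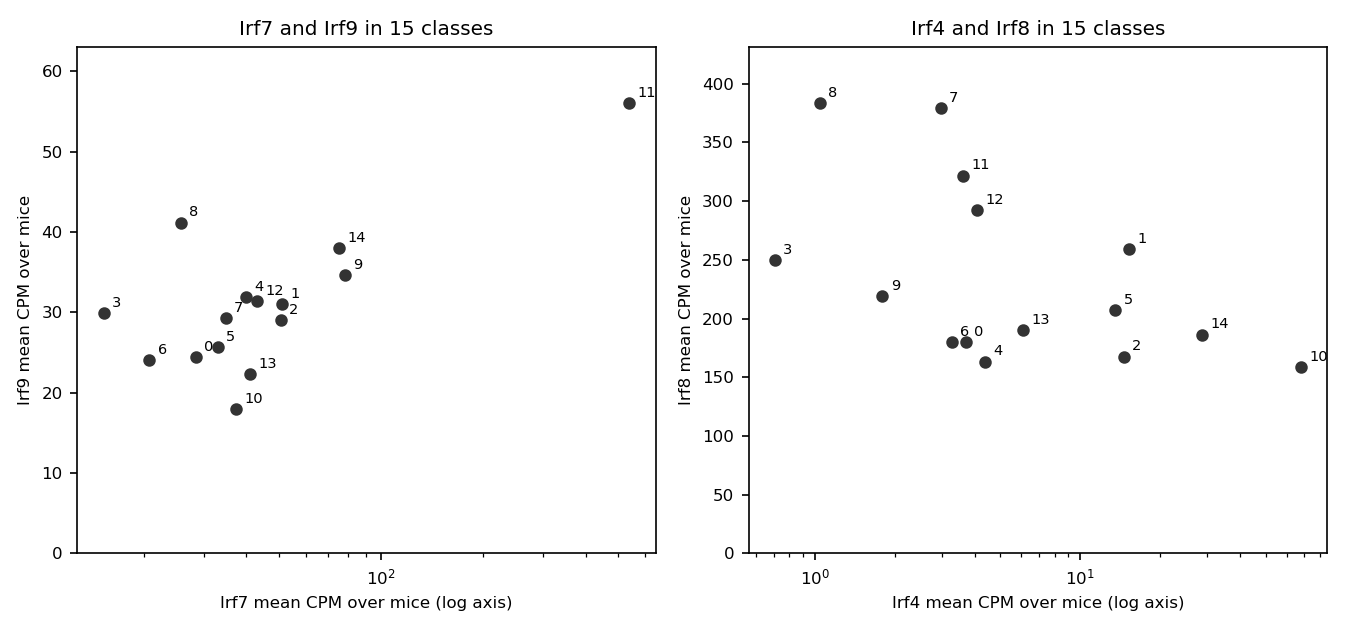
Mean level over mice of Irf9 against Irf7 (left) and of Irf8 against Irf4 (right) in 15 macrophage classes, each point a class with its cluster number; the x axes are logarithmic and all values are CPM. Cluster 11 stands apart on the left at 538 and 56.0 CPM, and on the right cluster 10 has the highest Irf4 (67.7) and the lowest Irf8 (158) mean.

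Within single cells thinned to 2000 UMIs, pairs were rare. Irf7 and Irf9 were found together in 53 cells, 0.66% of cells on average over the mice against 0.45% from the product of their separate shares, with ratios of 1.10 to 1.80 in the 3 mice. Irf4 and Irf8 were found together in 49 cells, with ratios of 0.50 to 0.86. For Irf5 and Irf8, the pair seen together most often (604 cells), the ratios were 1.03 to 1.12. Such small shares at this depth describe these cells only.

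The genes most like each member across the 15 classes were taken by Pearson r of log2 levels among 4912 genes of at least 20 CPM on average. For Irf7 these were Zbp1 (0.95), Oasl2 (0.92), Phf11d (0.92) and Ifit2 (0.91). Irf7 averaged 538 CPM in the interferon-like class and 78.2 CPM in the next, and r for these genes was not taken without that class. For Irf4 they were the chemokine Ccl9 (0.94), the semaphorin receptor Plxnd1 (0.94), Ahnak (0.93) and S100a10 (0.93). Irf8 was most like Apobec1 (0.87), Rab9 (0.85) and Sirt7 (0.85), and Irf9 most like Ms4a6b (0.87), Max (0.86), Tor1aip1 (0.85) and Grina (0.84). For Irf5 the nearest were Tmbim6 (0.87), Evi2a (0.80), Pla2g7 (0.75) and Vcam1 (0.70), and for Irf2 Pnrc2 (0.84), Tmem173 (0.82), which encodes the adaptor STING, Zfp710 (0.81) and Arid4a (0.81). Irf1 had the weakest matches, with Chordc1 (0.72), Epsti1 (0.69), Tlk2 (0.69) and Rtp4 (0.69). Of the genes named, Oasl2, Phf11d, Ifit2, Ccl9, Ahnak, S100a10, Vcam1 and Rtp4 were used to cluster. They thus helped to shape the classes over which r was taken.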

How the data were processed

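The deposited matrices hold raw UMI counts; per the submitters' processing notes the authors used Cell Ranger 3.0.2 and build mm10, and no source used here names the annotation version. Cells had at least 500 genes and at most 15% mt- UMIs. The members and lists were chosen with earlier results of these data known. Cells were clustered in scanpy 1.11.5 (2000 variable genes, 30 principal components, 15 neighbours, Leiden resolution 1.0) without 141 genes of the IRF pathway lists. A cluster took a list's name when 5 or more of the list's markers had UMIs in 10% of its cells and a log2 level 0.5 above the other clusters, and when its markers also outnumbered those of every other list among the 10 leading genes. Scrublet marked 11 cells (0.113%) as doublets, which is too low to be credible, and none were removed.

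Counts of each mouse and class were added up (at least 10 cells, in 2 or more mice) and tested in edgeR 4.0.16 (R 4.3.3; TMM, filterByExpr, robust quasi-likelihood F test, 2-sided, Benjamini-Hochberg), with class and mouse as terms. The pairing is by animal: all classes of a mouse come from the same tumour. SEs are the log2 change divided by the square root of F. Score bins used 9290 cells thinned to 2000 UMIs, and 401 shallower cells were left out. The named pathway genes are the 2 largest changes in each direction with 1 sign in every mouse, in the class where a member changed most, and some items are not reported here. The fit was tested on simulated data. Alternatives covered normalization, DESeq2 1.42.0, filters, clustering, doublets, depth and left-out mice. Mouse positions and promoter windows came from GENCODE and RefSeq tables of build GRCm38, matched by symbol for 7 of 7 members.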

Additional observations from a re-analysis of the deposited data

Results flagged for a closer look

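Irf7 stood higher in the 58 tumour epithelium-like cells, which the comparisons did not use, than in the macrophages of any mouse, at 111 CPM (63 UMIs). In mice 2 and 3 it had 19 and 43 UMIs there (90.6 and 126 CPM), against 42.8 and 45.5 CPM in their macrophages, and 3 counts would give 14.3 and 8.76 CPM. The 4 such cells of mouse 1 had 1 UMI. Irf3 stood at 51.2 CPM in the same 58 cells, with 9 and 20 UMIs in mice 2 and 3 (42.9 and 58.4 CPM) against 29.7 and 30.7 CPM in their macrophages, and with 0 UMIs in mouse 1, where 3 counts would give 209 CPM. These differences were not tested.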

How the results depend on the processing

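Members called higher and lower in a class numbered 15 and 20. Without the replicate block they were 10 and 5, and leaving out 1 mouse at a time gave 11 to 17 and 6 to 16. The lower count was 11 with at least 20 cells in each of 3 mice, with 4000 variable genes, with at least 1000 genes per cell and with clusters and tests on separate UMIs, 13 at Leiden resolution 0.5 and 7 with cells thinned to 2000 UMIs, while resolution 1.5 gave 27 higher. By score, 15 were higher and 6 lower, against 8 and 3 with the DESeq2 Wald test, 1 and 1 without the replicate block, 6 and 1 at 1000 UMIs, and 9 higher when scaled by library totals. Leaving out 1 mouse gave 5 to 16 higher and 2 to 4 lower. Of 1605 pairs of pathway gene and class 265 were called higher (16.5%; 172 to 269 without 1 mouse) and 209 lower (13%; 72 to 205), against 10.2% and 6.62% of all tested pairs. By ranks 2 pairs of members were at 0.5 or above in place of 5, and 1 of the 5, Irf7 with Irf9, was among them. The cause was not tested for any of these.

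Results that reversed were Irf1 in cluster 3 at 8% mt- UMIs (0.52), Irf5 in cluster 5 thinned to 2000 UMIs (0.027), Irf9 by MHC class II score at 1000 UMIs (-0.023), and Irf4 in cluster 5 at resolution 0.5 (-1.32), at 1.5 (-0.54) and with doublets removed (-1.03). Irf7 in cluster 11, Irf4 in clusters 10 and 2, Irf8 in clusters 7 and 8, Irf1 in cluster 7, Irf7 by interferon score and Irf4 by lipid-associated score kept their calls in every alternative run that gave a value, also without the replicate block. Scaling by library totals, and leaving out the cluster of few UMIs, were chosen after seeing the data. The first shifted the median of all genes by -0.27 to 0.16 and moved the share of higher calls by over 10 points in 16 of 24 comparisons. With 3 animals and 1 group, p-values set a difference between classes or bins against a spread estimated over all sums of the fit. They do not by themselves show that the difference recurred in each animal. The mouse block takes out differences in level between the animals, and all classes share 1 estimate of the spread. Levels under about 1 CPM rest on few UMIs.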

Other observations

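Barcodes left out for more than 15% mitochondrial UMIs, with at least 500 genes, numbered 318, 222 and 213 in mice 1, 2 and 3. Irf8 stood at 248, 236 and 263 CPM in them, near its level in the kept macrophages of mice 1 and 2 and above that of mouse 3. Irf7 stood at 25.5, 17.3 and 18.0 CPM and Irf5 at 73.4, 61.8 and 62.9, below the kept macrophages of each mouse. Irf1 was at 52.7, 66.1 and 22.5 CPM, above the kept macrophages in mice 1 and 2. These differences were not tested.

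Irf3, which like IRF7 is phosphorylated downstream of nucleic acid sensing, was higher in the Cd207 cluster 0 (log2 change 0.44 ± 0.11, adjusted p = 0.0017) and in the inflammatory-like cluster 6 (0.41 ± 0.14, adjusted p = 0.035, edgeR quasi-likelihood). The type I ligand Ifnk was higher in the same 2 classes (1.96 ± 0.49 and 2.66 ± 0.56, adjusted p = 0.0019 and 0.0003, edgeR), in 3 of 3 mice each, on 227 UMIs over all tested classes. Of all tested genes 14.1% and 12.3% were called higher in clusters 0 and 6. Scaling by library totals shifted the median of all genes there by -0.20 and -0.19. Alternatives are not given for Irf3 and Ifnk, so how far these calls depend on the scaling or on 1 mouse is open.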
